A study of Mus musculus with 4 samples.

Results

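The 10 genes described here encode IGF1, the IGF1 receptor, the insulin receptor, their docking protein IRS1 and 6 IGF-binding proteins. They were taken by symbol from the array's annotation, and all 10 were found among the 19938 genes measured. Where a gene had several probe sets with that symbol alone, the one with the highest mean over the 4 arrays stood for it. RNA came from whole embryonic lung of mice at E18.5, with 2 arrays of *Hmga2*+/+ (WT) and 2 of *Hmga2*-/- (KO) embryos and 1 array per sample. The study's methods list C57BL/6 and *Hmga2*+/- mice and give no strain background for the *Hmga2* line. The knockout is constitutive, so that HMGA2 is lost in every cell of the embryo and in all organs that feed the circulation, and the line was founded from heterozygous mice. The samples are labelled as biological replicates, but both WT titles carry the same group name, and where separate embryos are not assured, p values measure only the spread between these samples.

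IGF1 is a secreted growth factor that binds the IGF1 receptor, a tyrosine kinase, and with lower affinity the closely related insulin receptor. The activated receptors phosphorylate IRS1, which recruits the PI3K and AKT cascade and so promotes growth and survival of cells. IGF-binding proteins hold IGFs outside the cell, can restrain or prolong their action, and have effects of their own. In the fetal lung, IGF ligands and several of these binding proteins are made largely by the mesenchyme, and mice without the IGF1 receptor die of respiratory failure at birth.

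The *Hmga2* probe set did not separate the groups, with log2 values of 9.35 and 9.59 in WT, against 9.65 and 9.39 in the arrays labelled KO. Its position relative to the deletion was not settled, and the groups rest on their labels. Across probe sets, arrays correlated at r = 0.976 to 0.997, and WT replicate 1 stood apart from the other 3. It correlated at 0.985 with WT replicate 2 and at 0.976 with both arrays labelled KO. WT replicate 2 was closer to the arrays labelled KO (0.9935 and 0.9924) than to the other WT array, and the arrays labelled KO correlated at 0.997. All values below are RMA values on the log2 scale, and a difference is the mean of the arrays labelled KO minus the mean of the WT arrays, given with its standard error (SE). The level of one probe set says nothing about that of another, so genes were compared by their differences and not by their levels.

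The 4 largest differences between the groups were those of binding proteins, and they went both ways. *Igfbp2* and *Igfbp5* had higher means in the arrays labelled KO, *Igfbp6*, *Igfbp7* and *Igfbp3* lower ones, and *Igfbp4* overlapped. *Igf1* and *Irs1* had slightly higher and *Insr* and *Igf1r* slightly lower means. At an adjusted p under 0.05 over all genes, limma called 0 of the 10, where 0.782% of genes were called, 0.0802% higher and 0.702% lower. Before adjustment 6 of 10 had a limma p under 0.05, with 3 higher and 3 lower, against 14.5% of all genes, 5.88% higher and 8.58% lower. For 9 of 10 genes the groups did not overlap, with KO above WT for 4 and below for 5, where over all genes 49.4% did not overlap, 17.6% above and 31.8% below. A change of 1.2-fold was passed by 8 of 10, 3 higher and 5 lower, against 30.5% of all genes, 13.4% higher and 17.1% lower. The median absolute log2 difference was 0.37 for the 10 genes and 0.17 for all genes. These genes were chosen with results of these arrays in view, so the counts are a description. An exact permutation test of 2 arrays against 2 cannot give a two-sided p below 0.333.

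**Figure D1:**
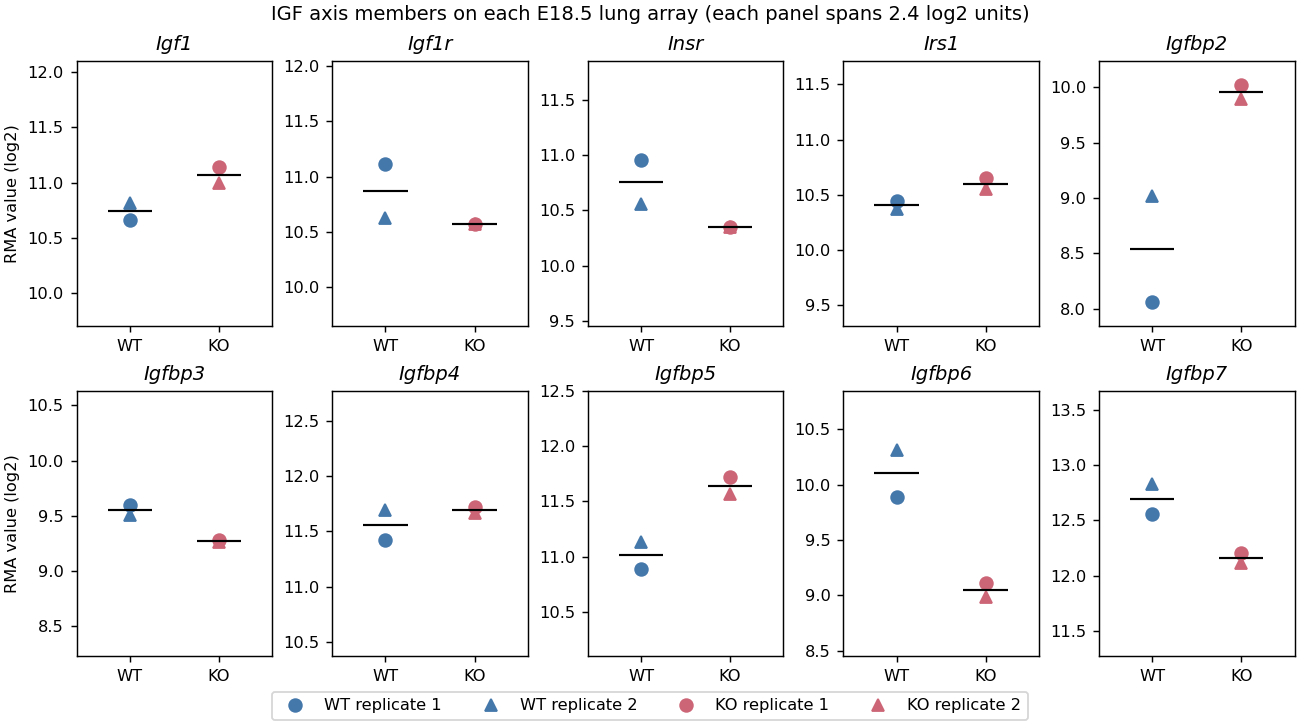
Log2 RMA values of the 10 genes on each array (y axis) by genotype (x axis). Circles are replicate 1, triangles replicate 2 and bars the group means of 2 arrays. *Igfbp2* and *Igfbp5* lie above and *Igfbp6* and *Igfbp7* below the WT arrays in both arrays labelled KO, and the WT arrays of *Igfbp2* are 0.96 apart.

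*Igfbp2* had the largest difference among the 10 genes. IGFBP2 is a secreted binding protein that is abundant in fetal tissues and is known in the lung as a gene of alveolar type I cells after birth. Its log2 values were 8.06 and 9.02 in WT, against 10.02 and 9.90 in the arrays labelled KO. Both arrays labelled KO thus lay above both WT arrays, and WT replicate 1 was by far the lowest. The log2 difference was 1.42 (SE 0.30, 95% interval 0.70 to 2.14, limma adjusted p = 0.106), a 2.67-fold higher level. It ranked 16 from the top among the 19938 genes. The difference shrank to 0.94 without WT replicate 1 and grew to 1.90 without WT replicate 2.

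*Igfbp5* went the same way by less. IGFBP5 is a binding protein that attaches to extracellular matrix, and its gene is the neighbour of *Igfbp2* on mouse chromosome 1, with no protein-coding gene between them in the RefSeq table. Its log2 values were 10.89 and 11.14 in WT, against 11.72 and 11.56 in the arrays labelled KO. The groups did not overlap, and the gap between them was larger than the gap within either. The log2 difference was 0.63 (SE 0.15, 95% interval 0.27 to 0.99, limma adjusted p = 0.137), or 1.55-fold. Against WT replicates 1 and 2 alone it was 0.76 and 0.50.

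*Igfbp6* had the largest difference downward. IGFBP6 is known for its preference for IGF2 over IGF1. Its log2 values were 9.89 and 10.31 in WT, against 9.11 and 8.99 in the arrays labelled KO. Every array labelled KO lay below every WT array. The log2 difference was −1.05 (SE 0.17, 95% interval −1.47 to −0.63, limma adjusted p = 0.0628), a 2.07-fold lower level at rank 179 from the bottom. In contrast to *Igfbp2*, the difference was smaller against WT replicate 1 (−0.84) than against WT replicate 2 (−1.26).

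*Igfbp7* and *Igfbp3* were lower by less. IGFBP7 is a related protein with low affinity for IGFs that is deposited around blood vessels. The *Igfbp7* log2 values were 12.56 and 12.83 in WT, against 12.20 and 12.11 in the arrays labelled KO. The groups did not overlap, and the log2 difference was −0.54 (SE 0.15, 95% interval −0.89 to −0.18, limma adjusted p = 0.178). IGFBP3 is the main carrier of IGFs in blood after birth. The *Igfbp3* log2 values were 9.60 and 9.51 in WT, against 9.28 and 9.27 in the arrays labelled KO. The pairs lay close within each group and apart between groups, with a log2 difference of −0.28 (SE 0.13, 95% interval −0.58 to 0.026, limma adjusted p = 0.382). Its neighbour on chromosome 11, *Igfbp1*, had a log2 difference of 0.070 with overlapping groups.

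*Igfbp4*, which encodes a binding protein known as an inhibitor of IGF action, did not separate the groups. Its log2 values were 11.42 and 11.69 in WT, against 11.72 and 11.67 in the arrays labelled KO. WT replicate 2 lay between the arrays labelled KO, and only WT replicate 1 was lower. The log2 difference was 0.13 (SE 0.15, 95% interval −0.22 to 0.49, limma adjusted p = 0.671), which leaves room for a change in either direction, and it was −0.00027 without WT replicate 1.

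Promoter sequences of the binding proteins that lay furthest apart between the groups are shown because these genes went in opposite directions on the same arrays. HMGA2 binds AT-rich DNA through its AT-hooks, so runs of at least 6 A or T are in capitals, together with GGGCGG, the GC box, on either strand. The sequences are from RefSeq, build GRCm38.p6, each 5′ to 3′ on the gene's strand, from 250 bases before to 50 after the outermost start site in the table. *Igfbp2* lies at chr1:72824230-72824529 on the plus strand, *Igfbp5* at chr1:72874816-72875115 on the minus strand, *Igfbp6* at chr15:102143936-102144235 on the plus strand and *Igfbp7* at chr5:77407996-77408295 on the minus strand.
Igfbp2: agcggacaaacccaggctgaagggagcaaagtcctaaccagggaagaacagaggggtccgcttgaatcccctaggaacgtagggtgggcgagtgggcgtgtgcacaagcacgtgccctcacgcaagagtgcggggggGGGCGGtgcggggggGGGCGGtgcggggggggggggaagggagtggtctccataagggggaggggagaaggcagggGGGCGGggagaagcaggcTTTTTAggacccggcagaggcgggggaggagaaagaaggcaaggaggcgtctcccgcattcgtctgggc
Igfbp5: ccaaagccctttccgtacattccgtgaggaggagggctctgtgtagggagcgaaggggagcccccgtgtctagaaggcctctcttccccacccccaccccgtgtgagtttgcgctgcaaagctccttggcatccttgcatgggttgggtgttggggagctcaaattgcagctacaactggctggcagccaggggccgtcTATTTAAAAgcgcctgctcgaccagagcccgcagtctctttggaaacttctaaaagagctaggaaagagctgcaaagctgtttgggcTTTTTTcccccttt
Igfbp6: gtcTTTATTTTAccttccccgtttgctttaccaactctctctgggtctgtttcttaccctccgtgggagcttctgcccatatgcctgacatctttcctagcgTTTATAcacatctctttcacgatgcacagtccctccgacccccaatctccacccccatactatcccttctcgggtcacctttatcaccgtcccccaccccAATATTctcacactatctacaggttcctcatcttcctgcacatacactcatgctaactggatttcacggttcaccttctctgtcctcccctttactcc
Igfbp7: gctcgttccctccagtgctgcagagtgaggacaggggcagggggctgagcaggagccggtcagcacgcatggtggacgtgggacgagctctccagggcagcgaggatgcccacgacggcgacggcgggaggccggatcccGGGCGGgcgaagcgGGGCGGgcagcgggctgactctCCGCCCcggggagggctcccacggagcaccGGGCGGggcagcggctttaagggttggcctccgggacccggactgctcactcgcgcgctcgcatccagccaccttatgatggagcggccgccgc

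The binding protein genes with the higher means, *Igfbp2* and *Igfbp5*, differed in these letters. *Igfbp2* held GGGCGG 3 times and 1 short A or T run, whereas *Igfbp5* held no GGGCGG and more than 1 such run, the longest of 9 letters. *Igfbp6* and *Igfbp7* were as unlike each other. *Igfbp6* held no GGGCGG and several A or T runs, the longest of 9 letters, and *Igfbp7* held 4 GGGCGG and no run of at least 6. The share of all promoters with a run of 9 letters was not counted. The table holds promoters for 9 of the 10 genes, and *Insr* has no entry. GGGCGG was found in 4 of 9 against 35.7% of the 32851 promoters in the table, and a run of at least 6 A or T in 6 of 9 against 69.6%. TATAAA, searched on both strands and overlapping such runs, was in 2 of 9, *Igfbp4* and *Igfbp6*, against 13.6%, and TGTTTAC, a core site of FOXO factors on either strand, was in 0 of 9 against 3.65%. The G and C content ran from 49.7% for *Igfbp6* to 76.0% for *Igf1r*, where the median of all promoters was 52.7%. A match of letters is a description of the sequence and does not show binding.

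Among ligand, receptors and docking protein, differences were smaller than those of *Igfbp2*, *Igfbp5*, *Igfbp6* and *Igfbp7*, and 2 genes had a higher and 2 a lower mean. *Igf1* had log2 values of 10.66 and 10.82 in WT, against 11.14 and 11.00 in the arrays labelled KO. The groups did not overlap, and the log2 difference was 0.33 (SE 0.14, 95% interval 0.0010 to 0.66, limma adjusted p = 0.345), or 1.26-fold. It was 0.41 against WT replicate 1 and 0.25 against WT replicate 2.

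Both receptors had lower means, by more against WT replicate 1 than against WT replicate 2. *Insr* had log2 values of 10.95 and 10.56 in WT, against 10.35 on both arrays labelled KO. WT replicate 1 was the highest, and WT replicate 2 was closer to the arrays labelled KO than to it. The log2 difference was −0.41 (SE 0.16, 95% interval −0.80 to −0.011, limma adjusted p = 0.334), and leaving out WT replicate 1 or 2 gave −0.21 or −0.60. A second *Insr* probe set, with 10.39 and 9.93 in WT, against 9.76 and 9.69 in the arrays labelled KO, had a log2 difference of −0.44. *Igf1r* had log2 values of 11.12 and 10.62 in WT, against 10.57 on both arrays labelled KO. The gap between the WT arrays, 0.49, was larger than the log2 difference of −0.30 (SE 0.18, 95% interval −0.74 to 0.15, limma adjusted p = 0.485). Without WT replicate 1 it was −0.051, and without WT replicate 2 it was −0.54.

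*Irs1* was the only one of these 4 genes whose difference was smaller against WT replicate 1 than against WT replicate 2. Its log2 values were 10.45 and 10.37 in WT, against 10.65 and 10.55 in the arrays labelled KO. The groups were next to each other without overlap, and the log2 difference was 0.19 (SE 0.13, 95% interval −0.12 to 0.50, limma adjusted p = 0.508). A second *Irs1* probe set, with 6.09 and 6.04 in WT, against 6.23 and 6.09 in the arrays labelled KO, overlapped between the groups, with a log2 difference of 0.098.

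**Figure D2:**
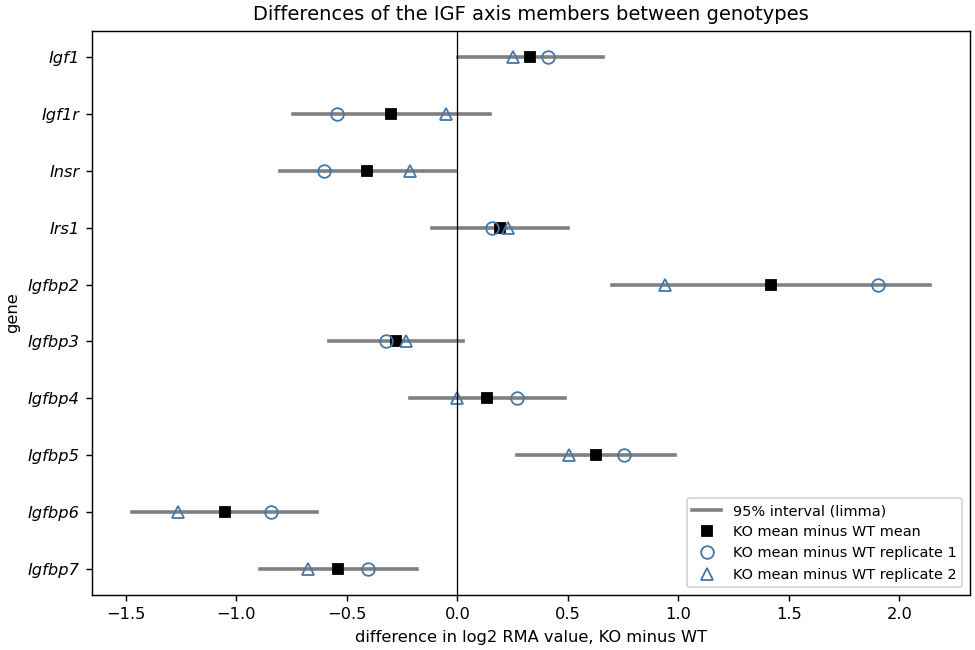
Difference in log2 RMA value, KO minus WT (x axis), for each of the 10 genes (y axis). Squares are differences of the means of 2 arrays, lines limma's 95% intervals, and open symbols the differences from each WT array alone. *Igf1r* moves from −0.54 against WT replicate 1 to −0.051 against WT replicate 2, and *Igfbp2* from 1.90 to 0.94.

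The arrays labelled KO lay close together for these genes. Their gap ran from 0.00053 for *Igf1r* to 0.15 for *Igfbp5*, and the gap between the WT arrays from 0.073 for *Irs1* to 0.96 for *Igfbp2*. The WT gap was the larger in 9 of 10 genes and in 67.2% of all genes. For *Igf1r* and *Igfbp4*, the largest gap within a group exceeded the difference between groups. For 7 of 10 genes, and 70.5% of all genes, the arrays labelled KO lay farther from WT replicate 1 than from WT replicate 2, the exceptions being *Irs1*, *Igfbp6* and *Igfbp7*. Without WT replicate 1, *Igfbp2*, *Igfbp5*, *Igfbp6* and *Igfbp7* passed an adjusted p under 0.05 in limma, where 8.22% of all genes did. Without WT replicate 2 these passed together with *Igf1*, *Igf1r* and *Insr*, where 31.6% did. Without KO replicate 1 or KO replicate 2 none of the 10 passed, where 0.00502% and 0.00% of all genes did. With 1 array left out, its group holds no spread of its own, and without either WT array limma gave every gene the same SE of 0.155.

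Other treatments of the 4 arrays moved *Igfbp6* and *Igfbp2* across the threshold and none of the other 8 genes. Both passed with the replicate number as a block, where 3.02% of all genes did, and without the dimmest 40 percent of genes, where 2.52% did. Both also passed with the numbers crossed between the groups as a block, an alternative added after the data were seen, where 2.57% of all genes passed. *Igfbp6* alone passed with each array centred on its median (1.47% of all genes), after cyclic loess (1.76%) and at an adjusted p under 0.10 (2.29%). Neither passed with all probe sets of a gene averaged (0.737%), with limma's trend and robust options (0.983%) or in an unmoderated test (0.00%).

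The rest of the pathway, 75 genes in 7 lists, had 0 genes that passed limma's test over all genes. Over all genes 0.782% passed. Before adjustment 18 of the 75 had p under 0.05, 5 higher and 13 lower, where 14.5% of all genes did, 5.88% higher and 8.58% lower. Their median log2 difference was −0.049 against −0.051 for all genes, and their median absolute difference 0.13 against 0.17.

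Among 4 other ligands and receptors of the family, *Igf2* stood apart. It encodes the main IGF ligand of the fetus, and its log2 values were 12.27 and 12.54 in WT, against 13.28 and 13.27 in the arrays labelled KO. The groups were well apart, with a log2 difference of 0.87 (SE 0.15, limma adjusted p = 0.0656). The other 3 overlapped, among them *Insrr*, the insulin receptor-related receptor, with −0.11. Of 8 other binding proteins, IGFBP proteases and their regulators, 3 had a higher and 5 a lower mean and none had an unadjusted p under 0.05. *Igfals*, the acid-labile subunit of circulating IGF complexes, had −0.30 (adjusted p = 0.378), and *Stc1*, a stanniocalcin, had −0.33 (limma adjusted p = 0.467).

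Downstream of the receptors, adaptors went both ways and so did PI3K subunits. Means were higher for 7 and lower for 5 of 12 docking proteins, adaptors and brakes (median log2 difference 0.038). *Irs3* had −0.40 (limma adjusted p = 0.251), *Irs2* −0.16 (adjusted p = 0.554), and *Grb10*, an imprinted adaptor that restrains both receptors, 0.36 (adjusted p = 0.274). The PI3K, AKT and mTOR cascade was split, with 9 of 19 higher, 10 lower and a median of −0.013. *Pik3cb*, a catalytic subunit, had −0.66 (SE 0.18, limma adjusted p = 0.177) and *Pik3r1*, the regulatory subunit that binds IRS1, −0.49 (SE 0.14, adjusted p = 0.195), while the catalytic subunit *Pik3ca* had −0.23 (adjusted p = 0.461). The regulatory subunits *Pik3r2* and *Pik3r3*, named after their values were seen, lay above WT without overlap, as 17.6% of all genes did. Their log2 differences were 0.30 (limma adjusted p = 0.362) and 0.20 (limma adjusted p = 0.510).

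FOXO factors, which AKT holds out of the nucleus, and genes they are known to activate had 4 higher and 13 lower means of 17, with a median log2 difference of −0.084. *Foxo1* itself had −0.051 with overlapping groups. The genes with the smallest p were *Klf15*, a transcription factor that also responds to glucocorticoids, with −0.65 (SE 0.13, limma adjusted p = 0.0937), and *Pdk4*, an inhibitor of pyruvate dehydrogenase, with −0.71 (SE 0.15, adjusted p = 0.110). Of 6 genes of the growth hormone receptor axis, which drives *Igf1* in the liver after birth, 1 was higher and 5 were lower (median −0.20). *Ghr*, the receptor, had 0.10 with overlapping groups. *Socs2*, a feedback inhibitor of the axis, had −0.67 (SE 0.13, adjusted p = 0.0859) and *Cish* −0.37 (limma adjusted p = 0.407). Of 9 proteins with an IGFBP-type domain that are not IGFBPs, 5 had a higher and 4 a lower mean. *Ccn2*, the connective tissue growth factor, had −0.64 (SE 0.13, adjusted p = 0.0937) and *Crim1* −0.43 (limma adjusted p = 0.212). *Ccn3*, named after its value was seen, had the largest difference of the list, in the other direction, with 0.75 (SE 0.23, limma adjusted p = 0.213).

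**Figure D3:**
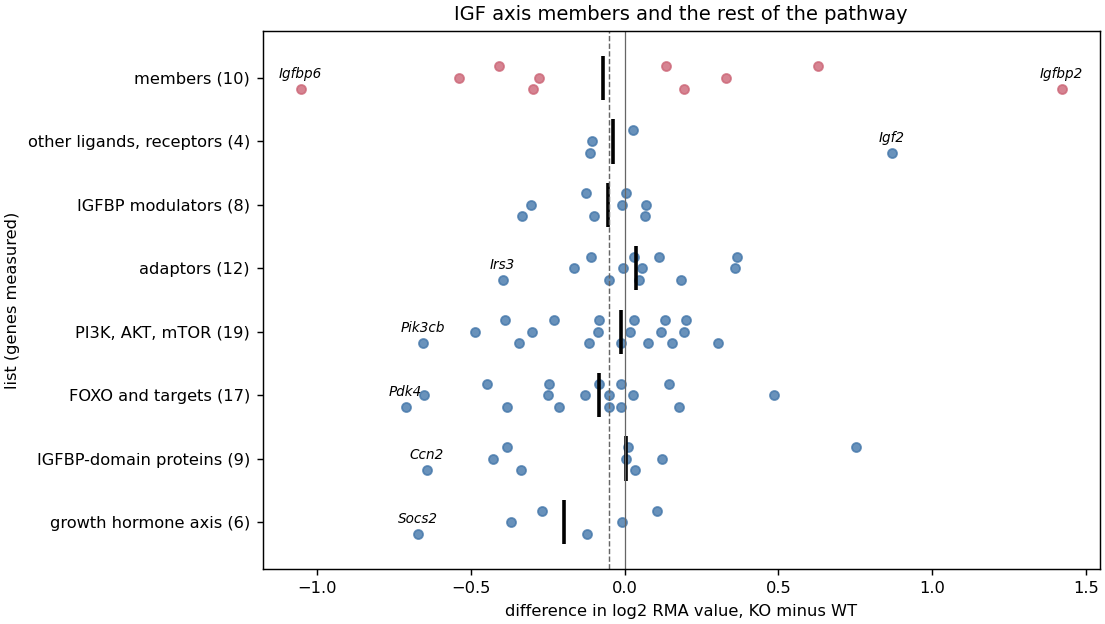
Difference in log2 RMA value, KO minus WT (x axis), of each measured gene (points) in the 10 genes and in 7 lists of the pathway (y axis, with the number measured). Short black bars are list medians, the dashed line is the median of all genes (−0.051) and the thin line 0. The points of the 10 genes run from −1.05 for *Igfbp6* to 1.42 for *Igfbp2*, and *Igf2* stands apart at 0.87.

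Markers of several cell types differed on the same arrays. In whole lung, fewer cells of a type and less RNA per cell cannot be told apart. The values carry no calls of absence, so no marker can be said to be at 0. All 7 alveolar type II and all 6 alveolar type I markers lay below WT without overlap, as 31.8% of all genes did. Their median log2 differences were −0.69 and −0.67. On the log2 scale, the summed level of the type II markers was 15.93 and 15.87 in WT, against 15.31 on both arrays labelled KO. That of the type I markers was 14.65 on both WT arrays, against 14.02 and 13.98 on the arrays labelled KO. *Igfbp2* had its higher mean on the same arrays, and any link to the type I markers was not tested. In these lists limma called 3 of 7 and 2 of 6 lower, where 0.702% of all genes were called lower, with the largest differences for *Sftpd*, which encodes surfactant protein D (−3.07, adjusted p = 0.00742), and *Rtkn2* (−2.49, adjusted p = 0.0121).

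None of the 7 endothelial and 6 macrophage markers passed limma's adjusted threshold, where 0.702% of all genes were called lower. Before adjustment 3 and 2 of them had a limma p under 0.05, all lower, against 8.58% of all genes. Of 7 endothelial markers, 6 had a lower mean, where 11732 of all 19938 genes did. Their median log2 difference was −0.27, with a summed level of 14.89 and 14.96 in WT, against 14.63 and 14.56 in the arrays labelled KO. All 6 macrophage markers had a lower mean, with a median of −0.33 and summed levels of 10.99 and 11.27 against 10.82 and 10.74. The largest differences were those of *Cldn5*, a tight junction gene of endothelium (−0.72), and *Adgre1*, which encodes F4/80 (−0.46). Mesenchymal markers went both ways, with 6 of 10 higher, a median of 0.040 and summed levels of 15.66 and 15.61 against 15.57 and 15.56, and *Dcn*, which encodes the matrix proteoglycan decorin, rose by 1.13 (limma adjusted p = 0.0455), the only one of the 10 to pass. *Fn1*, which encodes fibronectin and was named after its value was seen, had −0.68 (limma adjusted p = 0.168). *Vim* and *Fn1*, with WT means of 13.67 and 13.51, weigh most in the mesenchymal sum, and *Vim* had −0.060. General epithelial markers had 4 of 7 higher means, with a median of 0.017. *Epcam* had the largest difference (0.69, limma adjusted p = 0.178), and the others ran from −0.12 for *Cldn18* to 0.11 for *Nkx2-1*. All 6 smooth muscle markers had higher means, with a median of 0.17. No marker of the epithelial or smooth muscle list passed.

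None of the 9 measured markers of dividing cells and 1 of 6 markers of heart muscle passed limma's adjusted threshold, where 0.0802% of all genes were called higher. Before adjustment 9 and 5 had a limma p under 0.05, all higher, against 5.88% of all genes. All 9 measured markers of proliferation lay above WT without overlap, as 17.6% of all genes did, with a median log2 difference of 0.94. The summed level of these markers was 13.67 and 14.35 in WT, against 14.92 and 14.83 in the arrays labelled KO, with WT replicate 1 the lowest. All 6 heart muscle markers, which atria and pulmonary veins also express, lay above WT without overlap, as 17.6% of all genes did. Their median was 0.71, with summed levels of 13.25 and 13.13 against 13.99 and 13.81. *Nppa*, which encodes atrial natriuretic peptide, rose by 1.78 (limma adjusted p = 0.0172). Liver markers had a median of −0.16 and thymus markers of −0.15, and none passed the threshold. Means were lower for 5 of 6 and 6 of 6, where 11732 of all 19938 genes had a lower mean. Erythroid markers had 4 of 4 lower, with a median of −0.096 and summed levels of 11.92 and 11.90 against 11.44 and 11.37, and none passed. The summed level followed *Alas2*, which encodes an enzyme of heme synthesis (−0.66), while the other 3 had −0.10 to −0.050. What part any of these cell types had in the differences of the 10 genes was not tested.

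**Figure D4:**
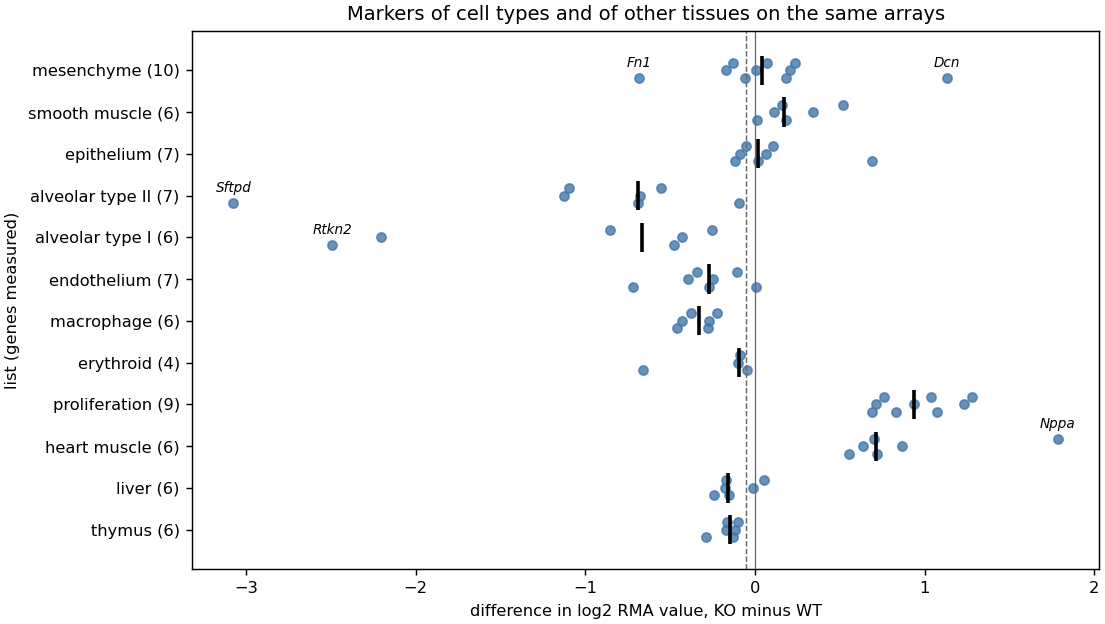
Difference in log2 RMA value, KO minus WT (x axis), of each measured marker gene (points) by cell type or tissue (y axis, with the number measured). Short black bars are list medians, the dashed line is the median of all genes (−0.051) and the thin line 0. Alveolar markers lie to the left of 0, with medians of −0.69 and −0.67, and markers of proliferation and heart muscle to the right, with 0.94 and 0.71.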

How the data were processed

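Total RNA of E18.5 lung was hybridised to Affymetrix arrays, 1 per sample. Log2 values of 30177 probe sets were deposited, summarised by the authors using RMA (Affymetrix Expression Console, per the submitters' processing notes, version not given). RMA subtracts background, forces arrays toward a common distribution by quantiles and combines probes by median polish, which can shrink large differences. There is no detection call, and precision is limited by having 4 arrays.

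The platform annotation gave 1 symbol for 21789 probe sets, several for 1621 and none for 6767. The brightest probe set stood for each of 19938 genes. Of these, 19856 matched the RefSeq table of GRCm38.p6. KO was compared with WT by limma 3.58.1 in R 4.3.3 (lmFit, eBayes, residual degrees of freedom 2, prior 4.42), with Benjamini-Hochberg adjustment across all genes at 0.05, and the code was tested on simulated data. Summed marker levels are the log2 of the sum of unlogged values, so the brightest probe sets weigh most. Older symbols were updated through RefSeq synonyms. The study's limit of 1.2-fold was counted without a test. Alternatives changed the block, scaling, filter, probe set rule, moderation, threshold or arrays used. Genes named are all 10 members, *Hmga2*, and the first gene and the 2 with the smallest p of each pathway list. For some marker lists, but not all, the marker with the largest difference is named. Some further genes were named after their values were seen. Members and lists were chosen with earlier results of these data known. Figures were drawn with matplotlib 3.10.9.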

Additional observations from a re-analysis of the deposited data

How the results depend on the processing

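Of 120 values of the 10 genes over 12 alternatives, 62 could differ from the main value, since a block, a filter or another variance estimate leaves a difference of means as it is. Of these 62, 61 kept the direction, the exception being *Igfbp4* when 1 array was left out (−0.00027 to 0.27). No gene of the 10 was called with all arrays and the main settings. The count was 2 (*Igfbp2*, *Igfbp6*) with the replicate number as a block, 1 (*Igfbp6*) with each array centred on its median, with cyclic loess or at an adjusted p under 0.10, 2 (*Igfbp2*, *Igfbp6*) without the dimmest 40 percent of genes, and 0 to 7 when 1 array was left out. The adjusted p of *Igfbp6* lay between 9.30e-14 and 0.936 over these alternatives, and that of *Igfbp2* between 3.29e-32 and 0.936. The lowest values come from leaving out 1 WT array, where limma gave every gene the same SE of 0.155, so that the p there ranks only the difference from 1 WT array. Among the 75 pathway genes the count of 0 became 1 with the block, with centring, without the dimmest genes and with trend and robust (*Igf2* each time), 3 with cyclic loess (*Igf2*, *Klf15*, *Pdk4*), 4 at 0.10 (*Igf2*, *Ccn2*, *Klf15*, *Socs2*) and 0 to 17 when 1 array was left out. Over all genes 156 were called, 16 higher and 140 lower. This became 602 with the block, 294 with centring (73 higher, 221 lower), 350 with cyclic loess (80 higher, 270 lower), 301 without the dimmest genes, 457 at 0.10, and 0 to 6292 when 1 array was left out. An unmoderated test, which the study does not name for its arrays, called 0 of all genes, with 1660 at an unadjusted p under 0.05. Deviations of same-numbered arrays correlated at −0.238 across genes. With 2 arrays per group, this value cannot show whether same-numbered samples belong together. A crossed pairing as a block, chosen after seeing the data, called 2 of the 10, 2 of the 75 and 512 of all genes. The cause of these shifts was not tested.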
